A study of Homo sapiens with 29 samples.

Results

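The myogenic regulatory factors are MYOD1, MYF5, MYOG (myogenin) and MYF6 (also called MRF4). They were followed through 29 one-colour Agilent arrays of LHCN-M2 cells, a human myoblast line immortalized with telomerase and CDK4 and derived from a selected clone. Each array probe was named through its RefSeq accession, which gave 22439 genes, of which 18432 had a probe that could be tested. The 4 factors are 4 of these, and each had 1 probe with 1 spot per array, so no second probe of a factor was there to compare. All cells were transfected with 20 nM siRNA, either siZNF148, which targets the zinc finger transcription factor ZNF148, or siControl, a nontargeting siRNA. RNA was collected at 24, 48 or 96 h in growth media and at 48 or 96 h in differentiation media. In growth media the 24 h cultures were subconfluent and the later ones confluent. There were 3 biological replicates in each of the 10 groups, except siControl at 96 h in growth media with 2. In the differentiation experiments the media was changed after the transfection, so equal hours in the labels of growth and differentiation media are not taken as equal times since transfection, and a media comparison can hold a difference in that time. Values are the quantile-normalized log2 signals deposited by the authors. A difference of 1 on this scale is 2-fold, and levels of different probes are not compared.

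The factors are basic helix-loop-helix proteins that pair with E proteins and bind E boxes, the short DNA motif CANNTG, in the promoters and enhancers of muscle genes. MYF5 and MYOD1 commit cells to the muscle lineage and are present in proliferating myoblasts. MYOG is switched on when myoblasts leave the cell cycle and begin to differentiate, and MYF6 has roles both in determination and in late differentiation and mature fibres. The genes of MYF6 and MYF5 lie next to each other on chromosome 12.

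The promoters of these genes are shown because E boxes are the motif that the factors themselves bind. The RefSeq table used here (GRCh38.p14) holds 3 of the 4, with no entry for MYOD1. The 250 bases before the transcription start are printed 5′ to 3′ on the strand of the gene, with capitals for every E box (CANNTG, which reads the same on both strands). MYOG lies at chr1:203086013-203086262 on the minus strand, MYF6 at chr12:80707384-80707633 on the plus strand and MYF5 at chr12:80716662-80716911 on the plus strand.
MYOG: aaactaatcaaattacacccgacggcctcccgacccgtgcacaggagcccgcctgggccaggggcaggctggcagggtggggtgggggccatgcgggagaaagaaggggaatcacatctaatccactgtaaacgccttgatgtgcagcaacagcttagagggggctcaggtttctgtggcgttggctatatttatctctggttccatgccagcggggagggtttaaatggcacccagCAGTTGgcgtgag
MYF6: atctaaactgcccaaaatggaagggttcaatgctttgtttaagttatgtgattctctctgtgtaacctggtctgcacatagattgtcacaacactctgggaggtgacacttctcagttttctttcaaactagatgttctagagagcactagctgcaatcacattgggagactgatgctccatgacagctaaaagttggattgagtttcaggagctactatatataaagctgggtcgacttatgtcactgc
MYF5: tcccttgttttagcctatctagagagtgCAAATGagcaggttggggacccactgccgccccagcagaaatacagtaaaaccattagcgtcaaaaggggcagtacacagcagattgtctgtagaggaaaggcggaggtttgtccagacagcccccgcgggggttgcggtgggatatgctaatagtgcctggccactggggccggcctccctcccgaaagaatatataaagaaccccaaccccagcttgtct
The MYOG window held 1 E box, CAGTTG, which began 13 bases before the start. The MYF5 window held 1, CAAATG, which began 222 bases before the start, and the MYF6 window held 0. Of 35114 promoter windows of this length, 61.8% held at least 1 E box. The letters TATAAA, searched on both strands, were found in the MYF6 and MYF5 windows and in 10.7% of all windows. The MEF2 consensus was taken as the strict pattern YTAWWWWTAR, where Y is C or T, W is A or T and R is A or G. Searched on both strands, it was found in the MYF6 window and in 2.8% of all windows. The letters ctatatttat in the MYOG window differ from it only at the last base, and such near matches were not counted. These matches describe letters in a window, not binding.

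The labels were checked first. The log2 signal of ZNF148 changed with siZNF148 by −1.53, −2.08 and −2.30 after 24, 48 and 96 h in growth media, and by −2.34 and −2.74 after 48 and 96 h in differentiation media (limma, adjusted p between 7.76e-13 and 4.46e-08). The highest siZNF148 array was below the lowest siControl array in every pair of groups. All 6 myoblast markers (DES, CDH15, NCAM1, ITGA7, MYF5 and MYOD1) were well above background on all 29 arrays, while PLIN1, LEP and KRT5, which define fat and epithelial cells, were above it on 0. Among the myoblast markers, MYF5 and MYOD1 are themselves factors of this report. DES and CDH15 are also counted below as targets of the factors. Of the 21 genes in the lists for 5 other cell types, 6 were above background on every array (CIDEC, CDH5, CD14, KRT8, SNAP25 and RBFOX3). The endothelial genes PECAM1, TEK and VWF were above it on 26, 25 and 25 arrays and PTPRC, which defines blood cells, on 26. Some of these lists moved with the groups. The mean log2 level of 4 endothelial markers was lower with siZNF148 without overlap from 48 h on, at 5.52 to 5.76 against 5.87 to 6.07 in growth media and 4.97 to 5.30 against 6.13 to 6.52 in differentiation media at 48 h. At 96 h it was 5.90 to 6.12 against 6.32 to 6.42 and 4.94 to 5.75 against 5.77 to 6.07. The 4 blood markers were lower with siZNF148 in growth media, at 4.66 to 5.56 against 5.81 to 5.98 at 48 h and 4.95 to 5.19 against 6.19 to 6.47 at 96 h, and in siControl cells at 96 h they were also lower in differentiation media (4.66 to 4.97). The 4 epithelial markers were higher with siZNF148 at 48 h (4.16 to 4.95 against 3.96 to 4.11) and 96 h (4.38 to 4.45 against 3.97 to 4.08) in growth media and at 96 h in differentiation media (4.65 to 5.82 against 4.45 to 4.54). The 5 fat markers were higher with siZNF148 at 96 h in both media (3.73 to 4.28 against 3.57 to 3.69, and 3.76 to 4.62 against 3.60 to 3.67), and the 4 markers of Schwann cells and neurons were lower at 48 h in differentiation media (6.44 to 6.98 against 7.06 to 7.85). The part of these lists in the results was not tested. On single arrays, 41.6% to 56.5% of probes had a signal well above background. The 6 arrays at 24 h shared 1 slide and were scanned on another day than the other 23 arrays, which were on 3 further slides, so 24 h cannot be told apart from that slide. The siControl arrays at 96 h in growth media shared no slide with those in differentiation media. Their media effect, for the factors and the listed genes, therefore also holds a change of slide. So does the difference in media response at 96 h.

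A single array stood apart. Replicate 1 of siControl at 48 h in growth media had a mean log2 signal of 16.33 over 5 myotube markers (MYH3, MYH8, CKM, ACTA1 and TNNC2), where the other arrays of its group had 7.92 and 8.01, and siZNF148 at the same time had 17.45 to 17.48. Its ZNF148 signal of 8.52 was the lowest of its group, which also held 8.85 and 9.18, but was above every siZNF148 array of that time (6.53 to 6.90). MYOD1, MYF6 and MYOG on this array were displaced toward the siZNF148 group at 48 h in growth media. MYF5 was the lowest of its group at 12.48, but close to the other arrays of the group (12.64 and 12.84). Since all groups share 1 estimate of the spread, this array also widens the error of the other comparisons, and calls of the factors that changed without it are given both ways. The array was singled out after its values were seen. The lowest and highest arrays of siControl at 48 h in differentiation media differed as well, with myotube marker means of 12.62, 11.94 and 10.85.

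**Figure D1:**
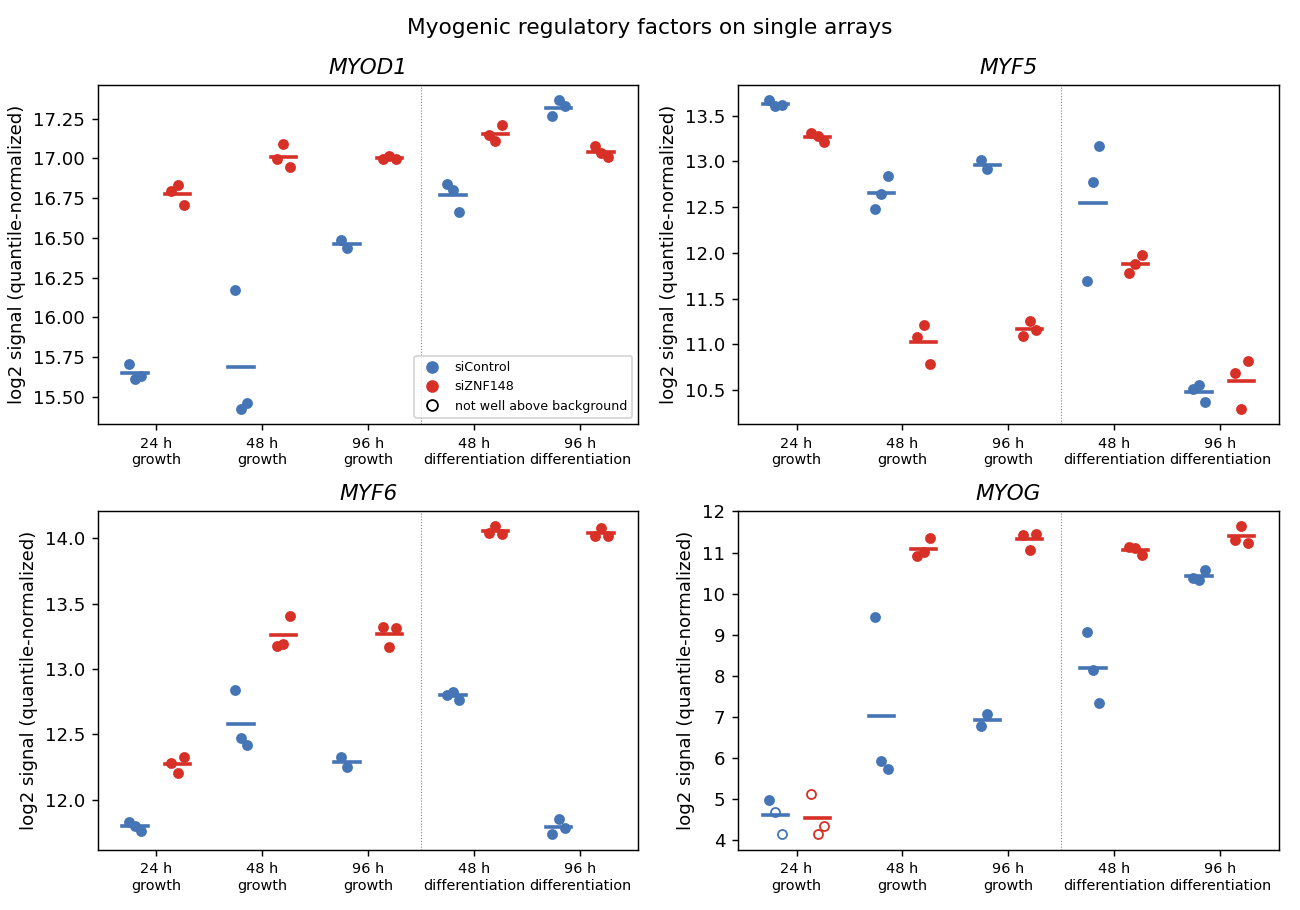
Quantile-normalized log2 signal (vertical axis) of MYOD1, MYF5, MYF6 and MYOG on each of 29 arrays, by hours and media (horizontal axis). Points are arrays, lines are group means, and open points were not well above background. Replicate 1 of siControl at 48 h in growth media is the high blue point for MYOD1 (16.17), MYF6 (12.84) and MYOG (9.42), and the 3 siControl arrays at 48 h in differentiation media are spread for MYF5 (11.69 to 13.17).

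MYOD1, which can convert other cell types to muscle, had the narrowest range of the factors, from 15.43 to 17.36. In growth media it was higher with siZNF148 at every time. At 24 h the siControl arrays had 15.71, 15.62 and 15.63 and the siZNF148 arrays 16.79, 16.83 and 16.71. All siZNF148 arrays lay above all siControl arrays, and MYOD1 rose by 1.13 ± 0.122, or 2.18-fold (adjusted p = 5.21e-07). Here and later ± gives the standard error of a difference. In bulk RNA, more cells that express a gene and more RNA per cell cannot be told apart. At 48 h siControl had 16.17, 15.43 and 15.46 and siZNF148 17.00, 17.09 and 16.94. The difference was 1.32 ± 0.122 (2.50-fold, adjusted p = 1.14e-08) and 1.56 without the array that stood apart. At 96 h siControl had 16.49 and 16.44 and siZNF148 16.99, 17.01 and 16.99, a smaller rise of 0.54 ± 0.136 (adjusted p = 0.0025) that stayed under 2-fold. The siRNA difference at 96 h was 0.59 smaller than at 24 h (adjusted p = 0.0141) and 0.79 smaller than at 48 h (adjusted p = 0.00629), the latter being 1.03 without that array, past 2-fold.

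MYOD1 responded to differentiation media in siControl cells, while no change passed the test in siZNF148 cells. At 48 h in differentiation media siControl had 16.84, 16.80 and 16.67, above all its growth media arrays by a mean of 1.08 ± 0.122 (2.11-fold, adjusted p = 2.17e-07). Without siControl replicate 2 or 3 in growth media it was 0.95 and 0.97, both under 2-fold. By the methods' t-test the media effect with all arrays passed without adjustment, which is how the methods describe it, but not with adjustment (adjusted p = 0.0528). At 96 h in differentiation media siControl had 17.26, 17.36 and 17.33, the highest of all groups, and the rise over growth media was 0.85 ± 0.136 (adjusted p = 3.37e-05). In siZNF148 cells the media difference was 0.14 at 48 h (95% interval −0.11 to 0.40, adjusted p = 0.549) and 0.04 at 96 h (−0.21 to 0.29, adjusted p = 0.888). The media response differed between the siRNAs, with a difference of −0.94 (adjusted p = 0.000178) at 48 h and −0.81 (adjusted p = 0.00207) at 96 h. Without the array that stood apart the 48 h value was −1.18, past 2-fold. In differentiation media MYOD1 rose with siZNF148 by 0.39 at 48 h (adjusted p = 0.0103). At 96 h it was 17.08, 17.03 and 17.01 with siZNF148, below every siControl array, but the difference of −0.28 missed the threshold (adjusted p = 0.0658). Without the array that stood apart the same difference had an adjusted p of 0.000261, and with 75th percentile scaling it turned to 0.016 (adjusted p = 0.924).

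The order of the MYOD1 levels ran from siControl at 24 and 48 h in growth media, whose arrays overlapped, through siControl at 96 h in growth media. The next were siControl at 48 h in differentiation media and siZNF148 at 24 h in growth media, which overlapped with means of 16.77 and 16.78. Above them came both later siZNF148 groups in growth media and siZNF148 at 96 h in differentiation media, with means of 17.00, 17.01 and 17.04 that overlapped neighbour by neighbour. The 2 highest groups were siZNF148 at 48 h (17.15) and siControl at 96 h (17.32), both in differentiation media, and they did not overlap on this scale.

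MYF5, the first of the factors to appear in the embryo, ran the other way. It was highest at 24 h, fell with siZNF148 in growth media from 48 h, and fell in siControl cells between 48 and 96 h in differentiation media. At 24 h siControl had 13.67, 13.60 and 13.61 and siZNF148 13.31, 13.28 and 13.21. The arrays did not overlap, but the difference of −0.36 ± 0.227 did not pass the test (adjusted p = 0.304). At 48 h in growth media siControl had 12.48, 12.64 and 12.84 and siZNF148 11.08, 11.21 and 10.79, a fall of 1.63 ± 0.227 (3.09-fold, adjusted p = 3.43e-06). At 96 h in growth media siControl had 13.02 and 12.91 and siZNF148 11.09, 11.25 and 11.16, and MYF5 fell by 1.80 ± 0.254 (3.48-fold, adjusted p = 4.57e-06). No arrays overlapped at either time.

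In differentiation media the siControl arrays at 48 h had very different MYF5 signals, 11.69 for replicate 1, 12.77 for replicate 2 and 13.17 for replicate 3. The siZNF148 arrays had 11.78, 11.88 and 11.98, inside that range. MYF5 fell by 0.67 ± 0.227 with siZNF148 (adjusted p = 0.0171), but leaving out siControl replicate 1 moved the difference to −1.09 and leaving out replicate 3 moved it to −0.35. Within the 3 slides it ran from −1.39 to 0.18. At 96 h siControl had 10.51, 10.56 and 10.37 and siZNF148 10.69, 10.30 and 10.82, and the difference of 0.12 (95% interval −0.35 to 0.60) did not pass (adjusted p = 0.72). Both groups were the lowest of the 10 for MYF5.

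The media response of MYF5 depended on the siRNA. In siControl cells at 48 h differentiation media gave a difference of −0.11 (95% interval −0.58 to 0.36, adjusted p = 0.795), which became 0.32 without replicate 1 in differentiation media and ranged from −0.95 to 0.69 within slides. At 96 h, between groups that shared no slide, MYF5 fell by 2.48 ± 0.254 (5.59-fold, adjusted p = 1.01e-07). In siZNF148 cells MYF5 rose by 0.85 ± 0.227 with differentiation media at 48 h (adjusted p = 0.0137) and had a difference of −0.56 at 96 h that did not pass (adjusted p = 0.0859). Set against siControl, the media response in siZNF148 cells was 0.96 higher (adjusted p = 0.0254) at 48 h and 1.92 higher (adjusted p = 0.000237) at 96 h. The 48 h value rested on single arrays. It was 0.54 without siControl replicate 1 in differentiation media (adjusted p = 0.0403) and 1.05, past 2-fold, without siControl replicate 1 in growth media. It did not pass without replicate 3 of siControl in growth media (0.87, adjusted p = 0.0627), of siZNF148 in growth media (0.84, adjusted p = 0.0696) or of siZNF148 in differentiation media (0.91, adjusted p = 0.0554), nor with the arrays of the comparison alone (adjusted p = 0.16). Between 48 and 96 h in differentiation media MYF5 fell by 2.06 in siControl cells (adjusted p = 3.72e-07) and by 1.28 in siZNF148 cells (adjusted p = 0.000173), and those falls did not differ past the threshold (0.79, adjusted p = 0.0673). Without siControl replicate 1 at 48 h in differentiation media the difference was 1.21 and passed (adjusted p = 4.87e-05), without replicate 3 of that group it was 0.48 (adjusted p = 0.227), and with array weights it was 1.10 (adjusted p = 8.4e-05). It also passed without siZNF148 replicate 2 at 96 h in differentiation media (0.94, adjusted p = 0.0373), with slide as a block (adjusted p = 0.0318) and with the stricter filter (adjusted p = 0.049).

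MYOG, which drives terminal differentiation, changed most. Its range was 4.15 to 11.65, and it was well above background on 24 of 29 arrays. At 24 h siControl had 4.98, 4.70 and 4.15, with 1 of 3 arrays well above background, and siZNF148 had 5.12, 4.16 and 4.34, with 0 of 3. No siRNA difference passed the test at 24 h (−0.06, adjusted p = 0.993), so no fold is given. At 48 h in growth media siControl had 9.42, 5.92 and 5.75 and siZNF148 10.92, 11.01 and 11.35. The siZNF148 arrays were all higher, and MYOG rose by 4.06 ± 0.611 (16.7-fold, adjusted p = 8.96e-06). Without the array that stood apart the rise was 5.26 (adjusted p = 5.83e-11), and within the 3 slides it ran from 1.59, the slide of that array, to 5.42. The methods' t-test passed without adjustment, which is how the methods describe it, but not with adjustment (adjusted p = 0.0736). At 96 h in growth media siControl had 6.79 and 7.08 and siZNF148 11.44, 11.08 and 11.45, a rise of 4.39 ± 0.683 (20.9-fold, adjusted p = 1.53e-05).

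In siZNF148 cells in growth media MYOG at 48 h was at least 68.5-fold higher than at 24 h, taking for each 24 h array the lowest well measured signal of any probe where MYOG was dimmer (adjusted p = 7.89e-09 in the fit). The means measured were 11.09 and 4.54. The siRNA difference of MYOG was 4.12 larger at 48 h than at 24 h (adjusted p = 0.000661). These times cannot be told apart from slide, scan and confluence. From 48 to 96 h none of the factors changed past the test in siZNF148 cells in growth media, where the differences lay between −0.01 and 0.23.

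Differentiation media raised MYOG in siControl cells at 96 h, and no media difference passed the test in siZNF148 cells. At 48 h in differentiation media siControl had 9.06, 8.15 and 7.34, and its growth media arrays spanned this range, with a difference of 1.15 ± 0.611 (adjusted p = 0.156). This value rests on 1 array. Without siControl replicate 1 in growth media it was 2.35 (adjusted p = 1.15e-05), and within slides it ran from −2.08 to 3.13. At 96 h in differentiation media siControl had 10.38, 10.33 and 10.57, a rise over growth media of 3.49 ± 0.683 (11.3-fold, adjusted p = 0.000332). The siControl groups at 96 h shared no slide, and with slide as a block the rise was 2.97. In siZNF148 cells the media difference was −0.03 at 48 h (95% interval −1.30 to 1.24, adjusted p = 0.997) and 0.07 at 96 h (−1.20 to 1.34, adjusted p = 0.969).

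The siRNA difference of MYOG in differentiation media was smaller in value at 96 h. At 48 h siZNF148 had 11.13, 11.11 and 10.94, and MYOG rose by 2.88 ± 0.611 (7.35-fold, adjusted p = 0.000356). At 96 h siZNF148 had 11.30, 11.65 and 11.24, all above siControl, but the difference of 0.96 ± 0.611 did not pass (adjusted p = 0.213), whereas without the array that stood apart it did (adjusted p = 0.0135). The change of the siRNA difference from 48 to 96 h was −1.91 (adjusted p = 0.101), and without that array it passed (adjusted p = 0.00155). The media response of MYOG differed between the siRNAs by −3.42 at 96 h (adjusted p = 0.0084). At 48 h the same difference was −1.18 (adjusted p = 0.358), and −2.38 without that array (adjusted p = 0.000376). In the order of MYOG levels, the 4 siZNF148 groups at 48 and 96 h were the highest, with means of 11.06 to 11.39 and overlapping neighbours, and siControl at 96 h in differentiation media was next at 10.43 without overlap.

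**Figure D2:**
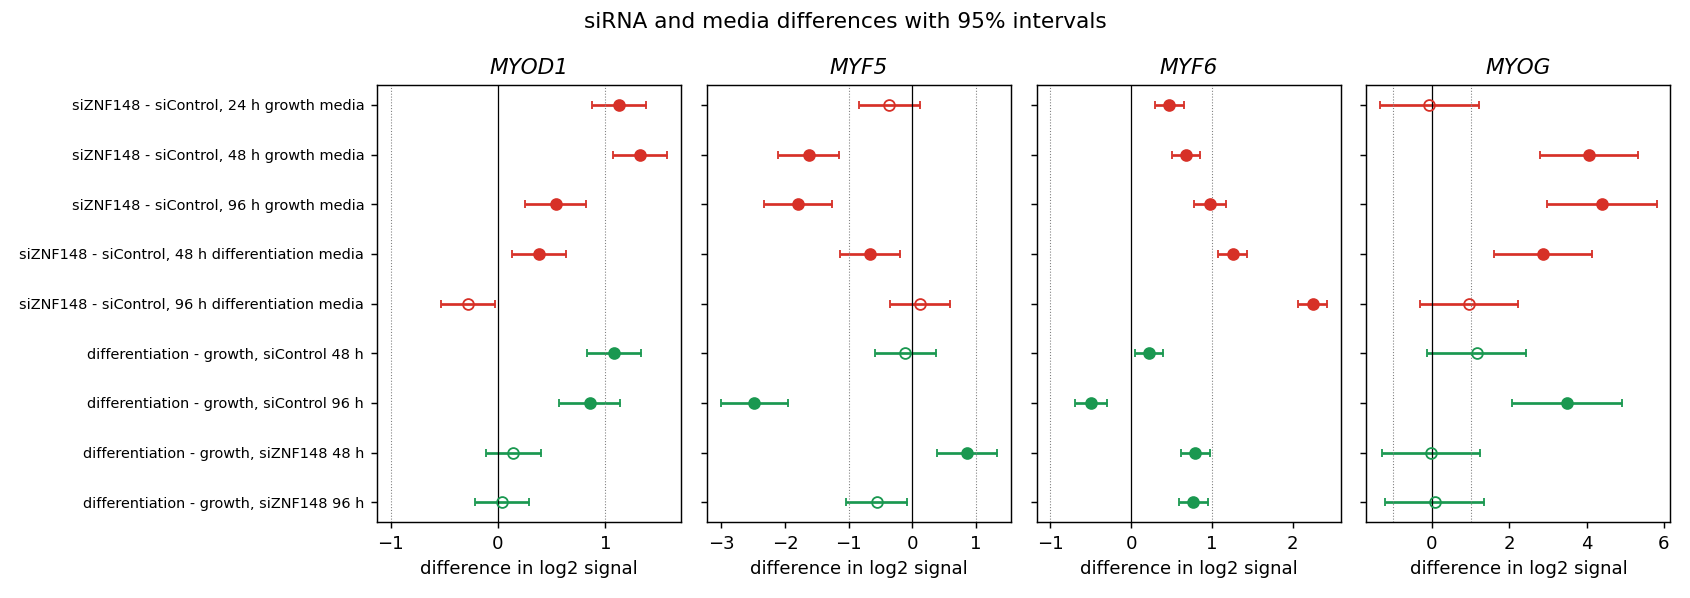
Difference in log2 signal (horizontal axis) of each factor between siZNF148 and siControl (red) and between differentiation and growth media (green). Bars are 95% intervals from the limma fit of all 29 arrays, filled points passed an adjusted p of 0.05, and dotted lines mark 2-fold. MYF6 has the largest siRNA difference in differentiation media at 96 h (2.25), where MYOD1, MYF5 and MYOG have open points.

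MYF6, whose signal was above background on all 29 arrays, had a pattern of its own. It was the factor whose siRNA difference was largest at 96 h in differentiation media, and its media response had opposite signs in siControl and siZNF148 cells at 96 h. At 24 h siControl had 11.83, 11.80 and 11.76 and siZNF148 12.28, 12.21 and 12.33, a rise of 0.47 ± 0.0846 (adjusted p = 0.000219). At 48 h in growth media siControl had 12.84, 12.47 and 12.42 and siZNF148 13.18, 13.19 and 13.40, a rise of 0.68 (adjusted p = 7.14e-07). At 96 h in growth media siControl had 12.33 and 12.25 and siZNF148 13.32, 13.17 and 13.31, a rise of 0.98 (adjusted p = 2.35e-08). The groups did not overlap at any time in growth media, and all 3 rises stayed under 2-fold.

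In differentiation media the MYF6 difference was larger. At 48 h siControl had 12.80, 12.82 and 12.76 and siZNF148 14.04, 14.09 and 14.03, a rise of 1.26 ± 0.0846 (2.39-fold, adjusted p = 3.15e-11). At 96 h siControl had 11.73, 11.85 and 11.79 and siZNF148 14.02, 14.08 and 14.02, a rise of 2.25 ± 0.0846 (4.75-fold, adjusted p = 1.14e-14). Between 48 and 96 h in differentiation media MYF6 fell by 1.01 in siControl cells (2.01-fold, adjusted p = 9.93e-09), while in siZNF148 cells the difference was −0.02 (95% interval −0.19 to 0.16). These time differences differed by 0.99 (adjusted p = 1.23e-06).

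With differentiation media MYF6 in siControl cells rose by 0.22 at 48 h (adjusted p = 0.0453), with overlapping arrays, or 0.35 without the array that stood apart (adjusted p = 0.000244). At 96 h it fell by 0.50 (adjusted p = 0.000244). In siZNF148 cells the rise was 0.80 (adjusted p = 9.29e-07) at 48 h and 0.77 (adjusted p = 7.2e-07) at 96 h, without overlap at either time. The difference between these media responses was 0.58 (adjusted p = 0.000637) at 48 h and 1.27 (adjusted p = 2.51e-07) at 96 h. The 2 lowest groups of MYF6 were siControl at 96 h in differentiation media (11.79) and siControl at 24 h in growth media (11.80), which overlapped. The 2 highest were siZNF148 in differentiation media at 96 h (14.04) and 48 h (14.05), which overlapped as well. Both lay above every other array of the series for this probe.

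The level reached by the knockdown in growth media was set against that of siControl cells in differentiation media at the same labelled hour. At 48 h MYOG was higher in the siZNF148 growth media cultures by 2.91 (adjusted p = 0.000347), MYF5 was lower by a difference of −1.52 (adjusted p = 6.47e-06) and MYF6 was higher by 0.46 (adjusted p = 7.69e-05). For MYOD1 the difference of 0.24 did not pass (95% interval −0.01 to 0.49, adjusted p = 0.108). At 96 h MYF6 remained higher by 1.48 (adjusted p = 8.84e-12) and MYOG did not pass (0.89, adjusted p = 0.271), although without the array that stood apart it did (adjusted p = 0.0235). MYF5 was then higher in the siZNF148 growth media cultures by 0.68 (adjusted p = 0.0183) and MYOD1 lower by a difference of −0.32 (adjusted p = 0.04). At 48 h 2 of the 4 factors passed with more than 2-fold, against 25.2% of all tested probes, and 3 by the adjusted p alone, against 50.8%. At 96 h 1 and 3 did, against 16.6% and 42.6%.

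Counts over the 4 factors are set beside the share of all 38839 tested probes that passed the same rule, an adjusted p under 0.05 with more than 2-fold. For the siRNA effect in growth media 1 factor passed at 24 h against 4.78% of probes, 3 at 48 h against 20.1% and 2 at 96 h against 20.8%. In differentiation media 2 passed at 48 h against 28% and 1 at 96 h against 20.6%. By the adjusted p alone 2, 4 and 4 factors passed in growth media against 23.6%, 45.2% and 44% of probes. In differentiation media 4 passed at 48 h against 52.5%, and 1, MYF6, at 96 h against 48.1%. The arrays of the siRNAs did not overlap for 3, 4 and 4 factors in growth media, against 43.7%, 51.3% and 65.5% of probes, and for 3 factors at both times in differentiation media, against 59.4% and 55%.

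For the media effect in siControl cells 1 factor passed with more than 2-fold at 48 h against 13.4% and 2 at 96 h against 13%. In siZNF148 cells 0 passed with more than 2-fold at 48 h against 3.18% and 0 at 96 h against 5.47%. At each time 2 factors had an unadjusted p under 0.05 in limma, below 2-fold. By the adjusted p alone the counts in siControl cells were 2 and 4 against 38.5% and 33.8%, and in siZNF148 cells 2 and 1 against 13.4% and 21.7%. The arrays of both media did not overlap for 1 and 4 factors in siControl cells, against 43.5% and 57% of probes, and for 3 and 2 in siZNF148 cells, against 31.8% and 40.3%. For the difference in media response 0 factors passed with more than 2-fold at 48 h against 14% (3 by the adjusted p alone, against 31.6%), and 3 at 96 h against 10.6% (4 by the adjusted p alone, against 24.1%). Without the array that stood apart, the siControl media effect at 48 h had 2 factors against 14.8% and the difference in media response at 48 h had 3 against 14.9%.

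The course over time differed between the siRNAs. In siControl cells in growth media MYOG was 2.42 higher (adjusted p = 0.00352, with 1 of 3 arrays at 24 h well above background), MYF5 lower with a difference of −0.97 (adjusted p = 0.00193) and MYF6 0.78 higher (adjusted p = 4.52e-07) at 48 h than at 24 h, across the change of slide and confluence. Here 1 factor passed with more than 2-fold against 11.3% of probes, and 3 by the adjusted p alone against 37.2%. The MYOG value was 1.23 without the array that stood apart, and MYOD1, at 0.04 with it, was −0.21 (adjusted p = 0.0136). From 48 to 96 h in growth media siControl had 0 factors past 2-fold against 0.35% and 1 by the adjusted p alone against 1.55%, which was MYOD1 with a rise of 0.78 (adjusted p = 0.00328). Without that array the MYOD1 rise was 1.02 and past 2-fold, and MYOG went from −0.10 to 1.10 without passing.

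In differentiation media 3 of the 4 factors passed with more than 2-fold between 48 and 96 h in siControl cells against 8.38% of probes, and 4 by the adjusted p alone against 32.2%. MYOG rose by 2.24 (adjusted p = 0.00659) and MYOD1 by 0.55 (adjusted p = 0.0012), while MYF5 and MYF6 fell as described. In siZNF148 cells only MYF5 passed, 1 factor against 7.18% with more than 2-fold and against 27.9% by the adjusted p alone. In growth media siZNF148 cells had 2 factors past 2-fold from 24 to 48 h, MYF5 with a difference of −2.24 and MYOG, against 29.6%, and 3 by the adjusted p alone against 58.2%. From 48 to 96 h they had 0 against 5.03% and 0 against 21.5%, and the lowest unadjusted p was 0.544.

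The siRNA difference itself changed with time in growth media for 2 factors from 24 to 48 h (MYF5 by −1.27 and MYOG by 4.12), against 17% with more than 2-fold and 34.6% by the adjusted p alone. From 24 to 96 h 2 passed with more than 2-fold against 18.9%, and 4 by the adjusted p alone against 36.1%. From 48 to 96 h 0 passed with more than 2-fold against 3.9% and 1, MYOD1, by the adjusted p alone against 11%. In differentiation media 0 passed with more than 2-fold against 14% and 2, MYOD1 and MYF6, by the adjusted p alone against 32.8%. Without the array that stood apart 1 factor passed with more than 2-fold in each of the last 2 comparisons.

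**Figure D3:**
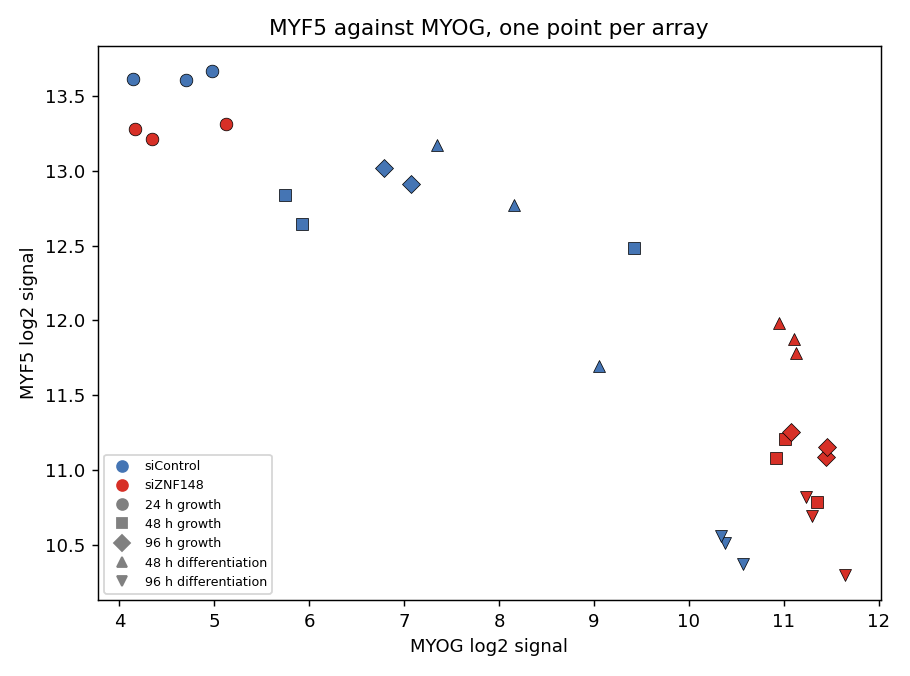
MYF5 log2 signal (vertical axis) against MYOG log2 signal (horizontal axis), with 1 point for each of 29 arrays, colour for siRNA and shape for hours and media. The 3 siControl arrays at 48 h in differentiation media (blue upward triangles) run from MYOG 7.34 and MYF5 13.17 to MYOG 9.06 and MYF5 11.69.

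Across the 29 arrays MYF5 and MYOG had a Pearson correlation of −0.90, given as a description since the arrays share groups and slides, and −0.89 over the 14 siControl arrays. The array with the highest MYOG among the 3 of siControl at 48 h in differentiation media had the lowest MYF5, and the array with the lowest MYOG had the highest MYF5. Replicate 1 of siControl at 48 h in growth media had MYOG at 9.42 and MYF5 at 12.48, and without it the correlation of MYF5 and MYOG was −0.91. MYOD1 and MYOG had a correlation of 0.74, and MYF6 and MYOG 0.70, but over the siControl arrays alone MYF6 and MYOG had 0.12.

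Among 15183 genes above background on at least 15 arrays, the genes most like each factor over the 29 arrays were named by their correlation. For MYOG these were TNNT1 (0.99), which codes for slow skeletal troponin T, CASZ1, SRPK3, ARPP21 and TTN, which codes for the sarcomere protein titin. For MYOD1 they were KCNN3 (0.93), PPM1H, CHD7, HEY1 and IQCJ-SCHIP1. For MYF5 they were FOXD1 (0.95), SEC22A, PTPRQ, ANO4 and PDK3, and for MYF6 ZFHX4-AS1 (0.96), ARL6IP5, UBE2D1, ARID1B and GYG1, the glycogen primer glycogenin.

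Partners, regulators and targets of the factors were read from 6 lists, each gene by its brightest tested probe, with ID4, EYA2 and MYMX having no tested probe. A gene was counted at an adjusted p under 0.05 and more than 2-fold. Of 29 tested targets, genes of contraction, acetylcholine receptors, cell fusion and cell cycle exit, 2 were higher with siZNF148 at 24 h, CDKN1C (a cell cycle inhibitor) by 3.35 and CHRNG (the fetal receptor subunit), which was well above background on 0 of 3 arrays in either group, so no fold is given for it. These 2 compare with 1.91% of all tested probes higher and 2.87% lower. At 48 h 25 were higher, against 9.83% of probes higher and 10.2% lower, and at 96 h 26 were higher, against 10.5% and 10.3%. At 48 h and 96 h the medians were 4.46 (6.28 without the array that stood apart) and 4.23, against −0.05 and −0.03 over all genes. CKM, muscle creatine kinase, rose by 8.06 at 48 h (adjusted p = 0.000133), or 11.45 without that array, and TNNC2, fast troponin C, by 8.15 at 96 h (adjusted p = 0.000155).

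In differentiation media 23 targets were higher with siZNF148 at 48 h, against 13.2% of probes higher and 14.8% lower, and 12 at 96 h, against 9.18% and 11.4%. The medians were 4.16 and 1.13, against −0.05 and −0.06 over all genes. MYL1, a myosin light chain, rose by 6.62 at 96 h (adjusted p = 0.000261). With all arrays 0 targets were lower in these 5 comparisons. Without the array that stood apart 5 targets were higher at 24 h and 26 at each later time in growth media, while differentiation media had 23 at 48 h, and at 96 h 17 higher and 1 lower.

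The media response of the targets also turned on the siRNA. In siControl cells 5 of 29 were higher in differentiation media at 48 h, against 6.83% of probes higher and 6.56% lower, and 25 without the array that stood apart. The median moved from 0.72 to 2.39 when that array was left out. CAV3, the muscle caveolin, rose by 2.11 at 48 h (adjusted p = 2.3e-05). At 96 h 21 were higher (25 without that array), against 6.23% higher and 6.78% lower, with a median of 3.08. ATP2A1, the sarcoplasmic reticulum calcium pump, rose by 5.40 at 96 h (adjusted p = 0.000258).

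In siZNF148 cells 0 of 29 targets passed in limma at 48 h, against 1.08% higher and 2.1% lower, and 0 at 96 h, against 1.45% and 4.02%. The medians were 0.16 and 0.30, 1 and 3 targets had an unadjusted p under 0.05, and without that array 1 was lower at 48 h and 1 higher at 96 h. The difference in media response passed for 3 targets at 48 h, against 6.69% of probes higher and 7.26% lower, and for 9 at 96 h, against 4.43% and 6.17%. All of these were negative, and without that array they were 23 and 24. Some targets already had high signals in siZNF148 cells in growth media at 96 h. MYBPH had means of 18.70 in growth and 18.74 in differentiation media, and TNNT1 had 18.49 in both. Others were far lower, such as CHRND with 9.48 and 9.71. Whether the upper end of the signal scale limited the media response was not tested.

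**Figure D4:**
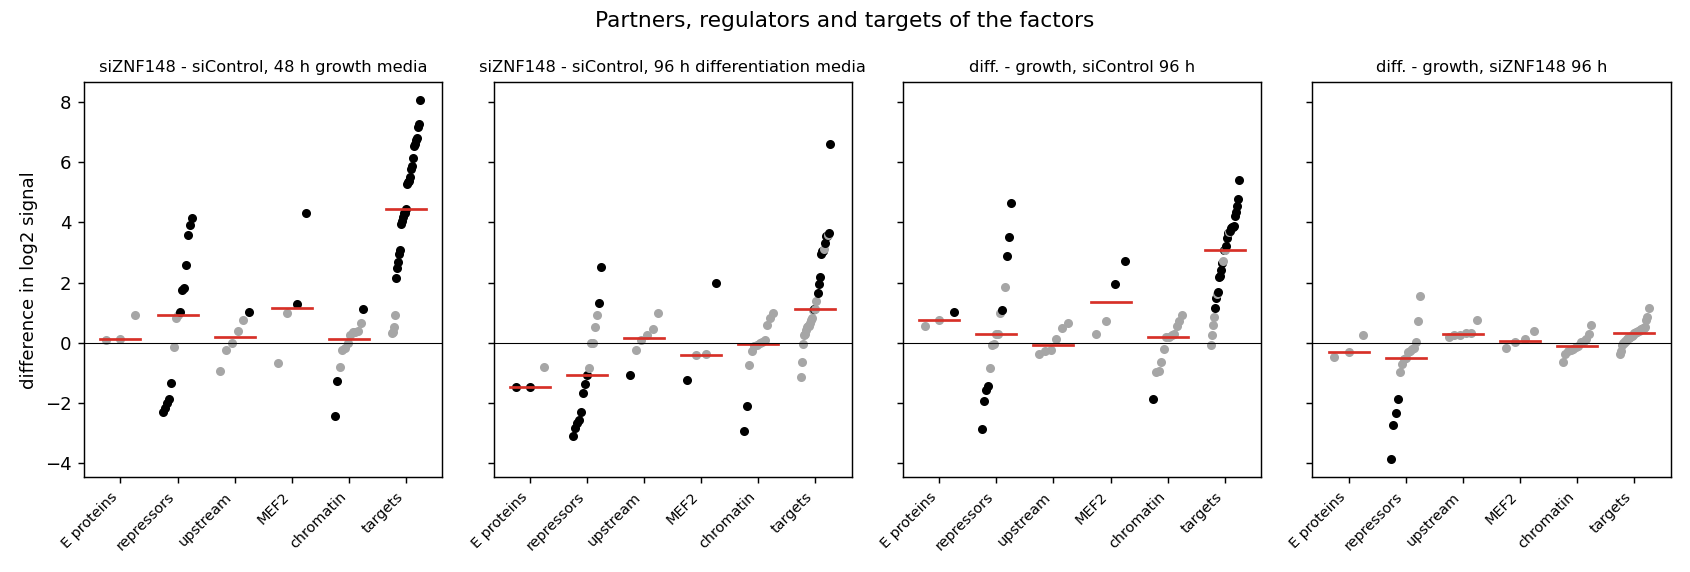
Difference in log2 signal (vertical axis) of the genes in 6 lists (horizontal axis) for 4 comparisons. Each point is a gene, black where it passed an adjusted p of 0.05 with more than 2-fold, and red lines are list medians. The targets have medians of 4.46 (siRNA, 48 h growth media), 1.13 (siRNA, 96 h differentiation media), 3.08 (media, siControl 96 h) and 0.30 (media, siZNF148 96 h).

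The repressors, proteins that block the factors or compete with them for E proteins or E boxes, moved both ways. Of 15 tested, siZNF148 gave 5 higher and 1 lower at 24 h (4 and 1 without the array that stood apart), 7 higher and 5 lower at 48 h, and 6 higher and 5 lower at 96 h in growth media. In differentiation media 2 were higher and 4 lower at 48 h, and 2 higher and 8 lower at 96 h. The shares of all probes higher and lower were those given for the targets, 1.91% and 2.87%, 9.83% and 10.2%, and 10.5% and 10.3% in growth media, and 13.2% and 14.8%, and 9.18% and 11.4% in differentiation media. The 2 higher of 15 in differentiation media are near those shares. HEY1, a Notch target, was up by 2.76 (adjusted p = 0.000164) at 24 h and 3.57 (adjusted p = 1.98e-06) at 48 h in growth media, and at 96 h by 2.33 (adjusted p = 0.00104). In differentiation media HEY1 had a difference of −0.26 (adjusted p = 0.719) at 48 h and was lower at 96 h, by a difference of −1.36 (adjusted p = 0.0223). SNAI1 and SNAI2, which occupy E boxes, were lower at 96 h in differentiation media, with differences of −3.09 and −2.84 (adjusted p = 6.04e-05 and 3.28e-12). SNAI1 was higher with siZNF148 in the other cultures from 48 h on, by 2.42 (adjusted p = 0.000649) at 48 h in differentiation media, 2.07 (adjusted p = 0.00785) at 96 h in growth media and 3.93 (adjusted p = 3.07e-06) at 48 h in growth media, where 1 of 3 siControl arrays was well above background. SNAI2 was lower there too, with differences between −3.45 and −1.86 (adjusted p at most 3.09e-09). ID1, which binds E proteins, fell with differentiation media in both siRNA groups. The difference was −2.98 at 48 h in siControl cells (adjusted p = 3.99e-15), and in siZNF148 cells −2.48 (adjusted p = 2.32e-12) at 48 h and −3.88 (adjusted p = 5.46e-16) at 96 h.

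Media also moved the repressors both ways in siControl cells, with 3 higher and 3 lower at 48 h (6 and 3 without the array that stood apart) and 4 higher and 4 lower at 96 h. These stand against 6.83% of probes higher and 6.56% lower at 48 h, and 6.23% and 6.78% at 96 h. In siZNF148 cells 0 were higher, and 3 were lower at 48 h, against 2.1% of probes lower, and 4 at 96 h, against 4.02%.

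The E proteins are the dimer partners of the factors. TCF4 and TCF12, 2 of the 3, fell with siZNF148 at 96 h in differentiation media, each with a difference of −1.47 (adjusted p = 8.68e-14 and 2.86e-09). TCF12 rose with differentiation media in siControl cells by 1.10 at 48 h and by 1.01 at 96 h. The shares of all probes are those given for the targets, here and for the lists that follow. The 4 MEF2 proteins act with the factors on muscle promoters. With siZNF148 0 of them were counted at 24 h, when MEF2A, MEF2D and MEF2B passed the adjusted p below 2-fold. Their differences were −0.93, 0.64 and −0.35 (adjusted p = 6.94e-05, 0.000122 and 0.0039). In growth media 2 were higher at 48 h (3 without the array that stood apart), against 9.83% of probes higher. At 96 h 2 were, against 10.5%. In differentiation media 2 were higher and 1 lower at 48 h, against 13.2% and 14.8%. At 96 h 1 was higher and 1 lower, against 9.18% and 11.4%. At 24 h MEF2C, by its brightest tested probe, had a difference of 0.13 ± 0.665 (adjusted p = 0.962). This error is too wide to exclude a 2-fold change of MEF2C at 24 h. It rose with siZNF148 by 4.32 at 48 h (5.79 without that array) and 4.68 at 96 h in growth media and by 4.26 at 48 h and 1.99 at 96 h in differentiation media. MEF2B fell in differentiation media, with differences of −1.61 and −1.23 at these times. Of 6 tested upstream regulators, 1 was higher at 48 h and 1 lower at 96 h in growth media (1 higher and 1 lower at 48 h without that array), and 1 was lower at each time in differentiation media, against shares of all probes between 9.18% and 14.8%. PAX3, active in muscle precursors, fell with siZNF148, with differences of −1.27 at 96 h in growth media and −2.64 and −1.09 in differentiation media at 48 and 96 h. Of 12 chromatin genes and coactivators, siZNF148 gave 1 higher and 2 lower at 48 h and 1 higher and 3 lower at 96 h in growth media, with medians of 0.13 and −0.03. The count of 1 higher is near the share of all probes, 9.83% at 48 h and 10.5% at 96 h. The lower genes, 2 and 3 of 12, stand against 10.2% and 10.3%. The counts in differentiation media were 1 higher and 2 lower at 48 h, against 13.2% and 14.8%. At 96 h they were 0 higher and 2 lower, against 9.18% and 11.4%. EZH2 and SUV39H1, both histone methyltransferases, fell with siZNF148 at 48 h in growth media, with differences of −1.28 and −2.45. The 2 lower genes in differentiation media were HDAC5 and SUV39H1 at both times, so EZH2 was not among them. The siRNA difference of EZH2 was more positive in differentiation than in growth media, with a gap of 2.03 for 48 h and 1.93 for 96 h (adjusted p = 7.93e-10 and 1.61e-08). The 48 h gap exceeds the fall in growth media, so EZH2 was higher with siZNF148 in differentiation media then.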

How the data were processed

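RNA of LHCN-M2 cells was labelled with Cy3 and hybridized to 29 one-colour Agilent arrays of 62976 spots (2075 controls). The authors extracted signals with Agilent Feature Extraction (10.7.3.1 in their processing notes) and deposited background-subtracted intensity values per spot, unscaled between arrays. They also deposited a matrix of log2 values, quantile-normalized over arrays, with 58341 rows (140 control probes). Each matrix column matched its own array best (correlation at least 0.995). The matrix was the main source. The intensity files gave the marks for signal above background, slides and scans, and the alternative scalings.

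Probes with a signal marked well above background by the scanner software on 2 or more of the arrays (38839) entered a single limma model of 10 group means (limma 3.58.1, R 4.3.3, with the data.table package at version 1.17.8), with two-sided tests and Benjamini-Hochberg adjustment within each of 23 comparisons. A value passed at an adjusted p under 0.05. A call also needed more than 2-fold. Arrays were grouped by the authors' labels. All probes of the factors were named, with the 5 genes most like each factor. From each list and comparison, the 2 called genes of largest change that were above background on every array were picked out. Only a part of these are described above. BHLHE41, with a difference of −3.80 for siZNF148 at 48 h in differentiation media, is among those that are not. CHRNG was named after its value was seen, as were the further values of HEY1, SNAI1, SNAI2, MEF2C and EZH2. The 24 h values of MEF2A, MEF2B and MEF2D, and the target levels set beside the media response, were chosen in the same way. The factors and lists were chosen with earlier results of these data known. RefSeq accessions (in a table for GRCh38.p14) gave names to 31104 of 58201 probes, and 14 array headers named hg19 while 15 named no build, so no gene positions are given beside the promoter windows. The fit was tested on simulated data. Alternatives were the authors' intensity files with quantile, 75th percentile or normexp scaling, other filters, variance priors, array weights, the arrays of a comparison alone, replicate or slide as a block, the methods' t-test with and without adjustment, and leaving out each array. Each array was left out of the comparisons that hold it. Only the siControl array that stood apart, singled out by its values, was also left out of the comparisons that do not hold it. In those the differences stay the same, and a pass gained comes from the smaller shared spread. List counts and values of list genes without this array were likewise an alternative chosen after seeing the data. The number of arrays limits the precision.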

Additional observations from a re-analysis of the deposited data

Results flagged for a closer look

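The effect of siZNF148 differed between media or times for these factors, by a test of the difference itself in the limma fit. For the difference in media response (siZNF148 minus siControl) at 48 h the values were −0.94 for MYOD1, 0.96 for MYF5 and 0.58 for MYF6. At 96 h they were −0.81 for MYOD1, 1.92 for MYF5, 1.27 for MYF6 and −3.42 for MYOG, and these include a change of slide between the siControl groups. The siRNA difference at 48 h minus that at 24 h in growth media was −1.27 for MYF5 and 4.12 for MYOG, and at 96 h minus 24 h it was −0.59 for MYOD1, −1.44 for MYF5, 0.50 for MYF6 and 4.45 for MYOG. These time differences include a change of slide, scan and confluence. Between 96 and 48 h the siRNA difference of MYOD1 changed by −0.79 in growth media and by −0.66 in differentiation media, and that of MYF6 by 0.99 in differentiation media. Groups of 3 or fewer arrays were not tested for outlying arrays. For MYF5 at 48 h the difference in media response was 0.54 without siControl replicate 1 in differentiation media.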

How the results depend on the processing

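Over 92 results for single factors and 1875 alternative values of 14 kinds, 1763 kept their direction and their side of the call, 11 kept the direction but were no longer called, 66 became called and 35 changed direction. The changes of direction were in 13 results, none of them called with all arrays. Each factor has 1 probe, so averaging probes changed nothing. The replicate numbers did not pair the arrays (correlations of deviations between −0.16 and 0.12), and with the replicate number as a block all 92 results kept their call, the 2 factors called for the siControl media effect at 96 h included. Numbers of factors called moved as follows. With no fold limit they were 2 for the siRNA effect at 24 h in growth media, 4 at 96 h, 4 at 48 h in differentiation media, 2 and 4 for the siControl media effect at 48 and 96 h, 2 and 1 for siZNF148, 3 for the difference in media response at 48 h, and 3 for siZNF148 in growth media against siControl in differentiation media at 96 h. For times they were 3 and 1 for siControl in growth media (48 minus 24 and 96 minus 48 h), and for the siRNA difference 4 (96 minus 24 h), 1 (96 minus 48 h, growth) and 2 (96 minus 48 h, differentiation). The 75th percentile gave 1 for the difference in media response at 48 h and 2 for siControl 48 minus 24 h. Array weights gave 2 for the siControl media effect at 48 h, 2 for the difference in media response at 48 h and 3 for the siRNA difference over time in differentiation media, where normexp gave 2, the slide block 1 and the arrays of the comparison alone 1. The methods' t-test gave 0 for the siControl media effect at 48 h (adjusted), 0 for siControl 48 minus 24 h (with and without adjustment, also with the arrays of the comparison alone) and 1 for siZNF148 in growth media against siControl in differentiation media at 48 h (adjusted). Leaving out 1 array gave 0 to 2 for the siControl media effect at 48 h, 0 to 3 for the difference in media response at 48 h, 1 to 2 for siControl 48 minus 24 h, 0 to 1 for siControl 96 minus 48 h in growth media and for its siRNA difference, and 0 to 2 for the siRNA difference over time in differentiation media. Of values that changed direction, the 75th percentile gave 0.016 for the MYOD1 siRNA effect at 96 h in differentiation media, 0.024 and −0.0058 for the MYOG media effect in siZNF148 cells at 48 and 96 h, −0.095 for MYOD1 in siControl 48 minus 24 h and −0.023 for MYF6 in siZNF148 96 minus 48 h in growth media. Normexp gave −0.12 for the MYOD1 media effect in siZNF148 cells at 96 h, 0.11 and −0.029 for MYOD1 and MYF6 in siZNF148 96 minus 48 h in growth media and 0.015 for MYF6 in differentiation media. Array weights gave 0.063 for the MYF5 media effect in siControl cells at 48 h, −0.043 for the MYOG media effect in siZNF148 cells at 96 h, −0.14 for MYOD1 in siControl 48 minus 24 h, 0.70 for MYOG in siControl 96 minus 48 h in growth media and −0.42 for its siRNA difference. The slide block gave 0.24 for MYOG in siControl 96 minus 48 h, 0.028 for MYOD1 in siZNF148 96 minus 48 h and 0.052 for the MYF5 siRNA difference over that time, all in growth media. It could not be fitted for 48 minus 24 h. Leaving out 1 array gave −0.35 to 0.13 for the MYOG siRNA effect at 24 h, −0.21 to 0.17 for MYOD1 in siControl 48 minus 24 h, −0.42 to 0.32 for the MYF5 media effect in siControl cells at 48 h, −0.12 to 0.10 and −0.055 to 0.15 for the MYOG media effect in siZNF148 cells at 48 and 96 h, −0.74 to 1.10 for MYOG in siControl 96 minus 48 h in growth media and −0.87 to 0.97 for its siRNA difference, −0.042 to 0.029 and −0.031 to 0.080 for MYOD1 and MYF6 in siZNF148 96 minus 48 h in growth media, and −0.035 to 0.0035 for MYF6 in differentiation media. Leaving out replicate 2 or 3 of siControl at 48 h in growth media gave 0.95 and 0.97 for the MYOD1 media effect in siControl cells at 48 h, both under 2-fold. The cause of these changes was not tested. MYOG at 24 h was near background, which limits its differences at that time.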
